A study of Mus musculus with 8 samples.

Results

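The genes described here encode the core of the H3K9 methylation and HP1 machinery: the methyltransferases *Setdb1*, *Ehmt1*, *Ehmt2*, *Suv39h1* and *Suv39h2*, the SETDB1 partner *Atf7ip*, the corepressor *Trim28*, and the HP1 genes *Cbx1*, *Cbx3* and *Cbx5*. They were chosen by name and matched by Entrez identifier. The count table of 21950 genes held 9 of these 10, since it has no row for *Cbx3*, and all 9 were tested with no filter on low counts. The libraries came from 8 cell pools, 4 of d6PGCLCs and 4 of E12.5 PGCs, each prepared in an independent experiment. The d6PGCLCs are germ cell-like cells induced in culture, from 1 female BVSC-iPSC line of mouse induced pluripotent stem cells, and per the labels were sorted for Blimp1-Venus and Stella-ECFP at culture day 8, which is day 6 of PGCLC induction. The E12.5 PGCs are primordial germ cells sorted for SSEA1 and integrin β3 from female gonads of C57BL/6J fetuses. The groups thus differed in reporters and, by their labels, in sorting markers as well as in origin. They also differed in stage, since the paper cites work that finds d6PGCLCs comparable to migrating PGCs, which are earlier than E12.5 PGCs. These differences cannot be told apart. The strain of the iPSC line is not given in the sources used here.

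Methylation of lysine 9 on histone H3 marks silent chromatin. EHMT2 (G9a) and EHMT1 (GLP) act as a heterodimer that makes most of the dimethyl mark in euchromatin, SUV39H1 and SUV39H2 make the trimethyl mark of pericentric heterochromatin, and SETDB1 makes the trimethyl mark at retrotransposons and imprinted regions, where KRAB zinc finger proteins bring in TRIM28, which in turn recruits SETDB1. ATF7IP protects SETDB1 from degradation and keeps it in the nucleus. HP1 proteins read the methyl mark through a chromodomain and compact the chromatin. Mouse germ cells lower the dimethyl mark during their migration, and SETDB1 is known to hold proviruses silent in primordial germ cells.

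Read counts of *Setdb1*, *Atf7ip*, *Ehmt1* and *Suv39h1* were 28.0 to 45.2% lower in d6PGCLCs than in E12.5 PGCs. Below, fell and rose mean a lower or higher level in d6PGCLCs, with no order in time. The other 5 genes, *Ehmt2*, *Suv39h2*, *Trim28*, *Cbx1* and *Cbx5*, did not pass the test, and none was higher. A gene was called where edgeR's quasi-likelihood test, adjusted across the whole table, gave p no higher than 0.05, and all log2 fold changes below are d6PGCLC over E12.5 PGC. Of all 21950 genes, 15.4% were called lower and 16.1% higher, 31.5% in all. Among the 11487 genes with a mean CPM above 1 (CPM being counts scaled to library size and TMM factor), to which all 9 belong, 25.6% were called lower and 28.1% higher. The count of 4 of 9 lower is to be read against that share, and the median log2 fold change was -0.25 over the 9 genes and 0.01 over the expressed genes. None of the 9 reached an absolute log2 fold change of 1, which 14.7% of all genes and 21.6% of the expressed genes did among those called. The study used a log2 fold change of 1 in size when it displayed genes of epigenetic regulation, and 2 for its calls across all genes. Past 2 in size, these shares were 6.62% and 7.24%.

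The windows around the start sites of the 4 genes that fell are shown because these were the ones called. Whether they share regulation was not tested. Each runs from 250 bases before to 50 bases after the RefSeq start in GRCm38.p6, 5′ to 3′ on the strand of the gene, with the GC box (GGGCGG) and the CCAAT box in capitals on either strand, where they read CCGCCC and ATTGG. The *Setdb1* window is chr3:95357153-95357452 on the minus strand, *Atf7ip* is chr6:136518601-136518900 on the plus strand, *Ehmt1* is chr2:24919560-24919859 on the minus strand and *Suv39h1* is chrX:8074711-8075010 on the minus strand.
Setdb1: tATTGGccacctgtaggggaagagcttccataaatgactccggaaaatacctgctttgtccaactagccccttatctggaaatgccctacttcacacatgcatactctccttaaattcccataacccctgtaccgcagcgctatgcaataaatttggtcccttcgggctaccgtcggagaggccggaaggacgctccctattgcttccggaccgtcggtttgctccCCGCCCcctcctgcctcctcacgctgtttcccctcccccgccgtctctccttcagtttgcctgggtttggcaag
Atf7ip: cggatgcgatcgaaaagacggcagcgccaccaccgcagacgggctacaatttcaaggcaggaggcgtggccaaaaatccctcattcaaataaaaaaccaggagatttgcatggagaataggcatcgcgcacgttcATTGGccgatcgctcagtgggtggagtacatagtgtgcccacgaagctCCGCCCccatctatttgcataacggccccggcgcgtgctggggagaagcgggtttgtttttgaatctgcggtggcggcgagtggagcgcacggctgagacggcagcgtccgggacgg
Ehmt1: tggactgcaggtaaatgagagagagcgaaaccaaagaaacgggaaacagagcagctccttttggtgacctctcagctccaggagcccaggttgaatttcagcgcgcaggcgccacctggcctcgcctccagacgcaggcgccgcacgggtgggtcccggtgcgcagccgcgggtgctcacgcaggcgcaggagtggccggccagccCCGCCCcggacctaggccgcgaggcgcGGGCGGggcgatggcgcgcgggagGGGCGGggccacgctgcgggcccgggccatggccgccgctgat
Suv39h1: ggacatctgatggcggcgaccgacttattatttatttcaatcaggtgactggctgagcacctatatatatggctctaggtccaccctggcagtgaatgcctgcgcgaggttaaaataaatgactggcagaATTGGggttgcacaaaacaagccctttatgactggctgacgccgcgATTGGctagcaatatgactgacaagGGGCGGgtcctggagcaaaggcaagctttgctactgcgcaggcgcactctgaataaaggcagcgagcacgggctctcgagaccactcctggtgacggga

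All 4 windows hold a GC box, as do those of the other 6 genes, *Cbx3* included, while 35.7% of the 32851 RefSeq windows of the same length hold one. A CCAAT box stands in the windows of *Setdb1*, *Atf7ip*, *Suv39h1* and *Cbx5*, that is in 4 of 10, against 37.4% of all windows. The GC box thus does not separate the genes that fell from those that did not pass the test. The windows held 15 to 34 CpG sites, where the median window has 7. The letters TATAAA were found in none of the 10 and in 13.6% of all windows. The E-box CACGTG was found in *Ehmt2* and *Cbx5* (7.15% of all windows), the CRE TGACGTCA in *Suv39h2* (1.79%) and the YY1 letters AAGATGGCG also in *Suv39h2* (1.4%). The E2F letters (TTTCGCGC, TTTGGCGC, TTTCCCGC or TTTGCCGC) were found in *Cbx3* alone (2.26%), and the NRF1 motif (0.971%) and ETS letters CCGGAAGT (3.89%) in none of the 10. Each motif was searched on both strands, and a match is a description of the letters only.

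*Setdb1* (chromosome 3, 95323525 to 95357202) had 68.5, 56.3, 64.7 and 59.0 CPM in d6PGCLC replicates 1 to 4. In E12.5 PGC replicates 1 to 4 it had 115.9, 95.02, 113.0 and 104.0 CPM. Every d6PGCLC pool lay below every PGC pool. The means were 62.1 ± 5.52 and 107 ± 9.46 CPM (SD, n = 4 each), and the log2 fold change was -0.78 (SE 0.10, 95% interval -0.998 to -0.57, adjusted p = 3.2e-06 in edgeR), a level 41.9% lower.

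*Atf7ip* (chromosome 6, 136518789 to 136610850), the partner that stabilizes SETDB1, had 91.1, 67.0, 66.7 and 65.7 CPM in the d6PGCLC pools. The PGC pools had 138.4, 112.8, 146.1 and 132.0 CPM. The ranges did not overlap, although d6PGCLC replicate 1 stood above the other d6PGCLC pools. The log2 fold change was -0.87 (SE 0.12, 95% interval -1.11 to -0.63, adjusted p = 3.8e-06), which was the lowest value of the 9 genes, and it was -0.99 without d6PGCLC replicate 1. The ratio of *Atf7ip* to *Setdb1* counts within a library was 1.17 ± 0.127 in d6PGCLCs and 1.24 ± 0.0532 in PGCs (two-sided exact permutation test, p = 0.343, n = 4 each), so that a difference between these falls was not detected.

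The deposited counts cover 1 isoform per gene, chosen at random by the authors. For *Setdb1* the counted exons came to 2962 bases, 63.6% of the longest GENCODE coding transcript, and for *Atf7ip* to 3370 bases, 41.8%. The other 7 genes were counted over 72.6% (*Cbx1*) to 120.9% (*Trim28*) of theirs. The lowest shares thus belong to the pair of genes with the lowest fold changes, and whether isoform use differed between the groups was not tested.

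*Trim28* (chromosome 7, 13024152 to 13031032), the corepressor that links KRAB zinc finger proteins to SETDB1, was the most abundant of the genes and nearly level. It had 2599, 2662, 2604 and 2509 CPM in d6PGCLCs and 2726, 2556, 2598 and 2742 CPM in PGCs. The ranges overlapped, and the log2 fold change was -0.03 (SE 0.08, 95% interval -0.19 to 0.12, adjusted p = 0.948). This interval does not reach those of *Setdb1* and *Atf7ip*.

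**Figure D1:**
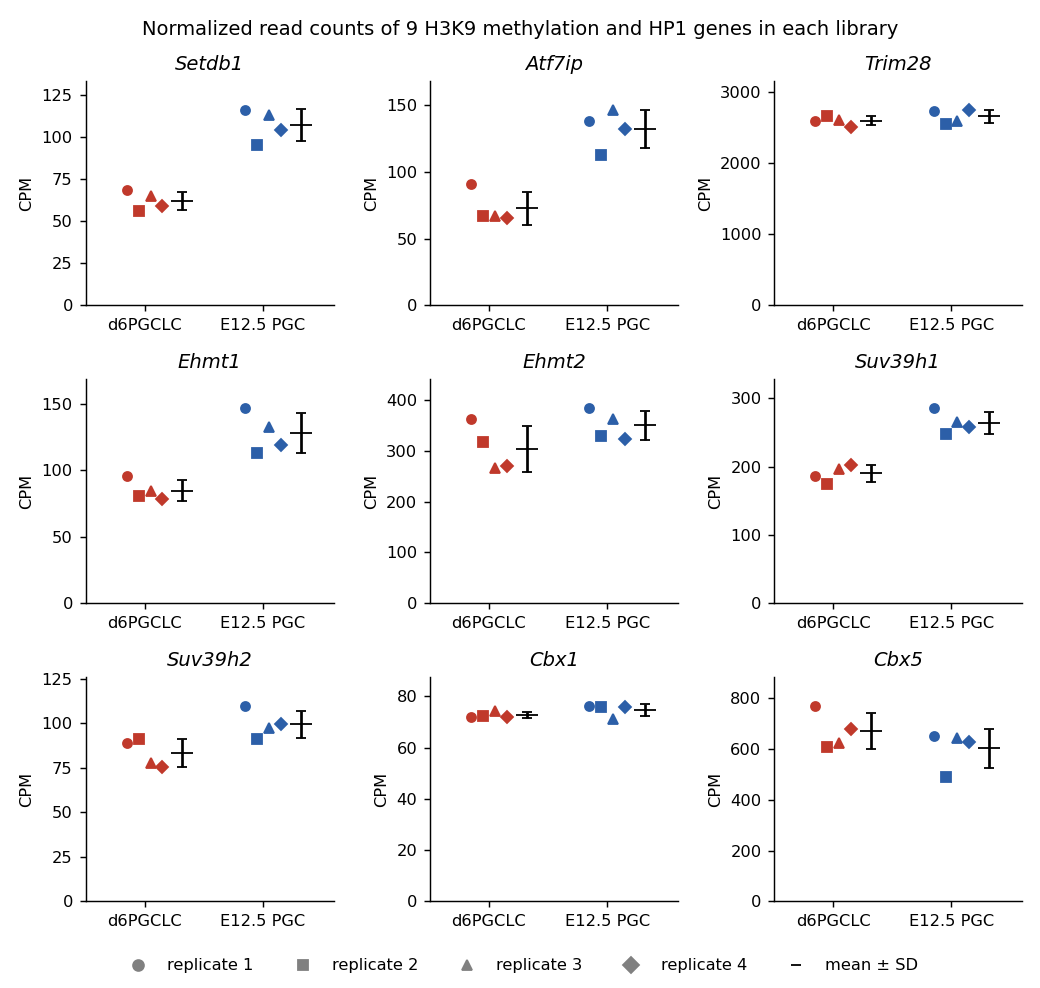
Normalized read counts (CPM, linear axis from 0) of the 9 genes in each of 4 d6PGCLC and 4 E12.5 PGC libraries, with mean ± SD beside the points and 1 symbol per replicate number. The groups are clearly apart for *Setdb1*, *Atf7ip*, *Ehmt1* and *Suv39h1*, meet at 90.9 CPM for *Suv39h2*, and overlap for the other 4 genes.

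Of the G9a/GLP pair, *Ehmt1* fell and *Ehmt2* did not pass the test. *Ehmt1* (chromosome 2, 24790769 to 24919643) had 95.9, 80.5, 84.2 and 78.3 CPM in d6PGCLCs and 146.7, 113.1, 132.4 and 119.3 CPM in PGCs. No d6PGCLC pool reached the lowest PGC pool. The log2 fold change was -0.59 (SE 0.10, 95% interval -0.81 to -0.38, adjusted p = 0.000101), a level 33.7% lower.

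*Ehmt2* (chromosome 17, 34898463 to 34914073) had 362.5, 316.4, 266.0 and 270.1 CPM in d6PGCLCs and 383.0, 328.0, 362.8 and 323.3 CPM in PGCs. The groups overlapped through d6PGCLC replicate 1. The log2 fold change was -0.20 (SE 0.10, 95% interval -0.41 to 0.01, adjusted p = 0.153). Leaving out d6PGCLC replicate 1 gave -0.30 with an adjusted p of 0.0103, and a term for the replicate number gave -0.21 with 0.0351, so that the call for *Ehmt2* depends on these choices.

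Within a library, 3.58 ± 0.345 reads of *Ehmt2* were counted per read of *Ehmt1* in d6PGCLCs and 2.74 ± 0.120 in PGCs (n = 4 each). The lowest d6PGCLC library had a ratio of 3.16 and the highest PGC library 2.90, so that the groups did not overlap. The difference was 0.38 on the log2 scale, with p = 0.0286 in a two-sided exact permutation test, the smallest that 4 against 4 libraries allow. Adjusted over the 4 ratios computed, p was 0.114, which does not pass. Given the p-values of the other ratios, no lower adjusted p was possible with this number of libraries. The adjusted value thus does not decide whether the ratio differed. This ratio is not independent of the fold changes above, as it comes from the same counts.

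The SUV39H genes were both lower in d6PGCLCs in mean, and *Suv39h1* passed the test. *Suv39h1* (X chromosome, 8061171 to 8074760) had 186.1, 174.5, 196.8 and 202.9 CPM in d6PGCLCs and 285.3, 247.1, 265.5 and 258.1 CPM in PGCs. The groups were apart, with a log2 fold change of -0.47 (SE 0.09, 95% interval -0.65 to -0.29, adjusted p = 0.000172). The median log2 fold change of the 431 expressed X-linked genes was -0.07, of which 33.2% were called lower, against 0.01 and 25.3% for 11037 autosomal genes, and the part of the X chromosome in the *Suv39h1* value was not tested.

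*Suv39h2* (chromosome 2, 3455815 to 3474986) had 89.0, 90.9, 77.7 and 75.6 CPM in d6PGCLCs and 109.5, 90.9, 97.5 and 99.5 CPM in PGCs. The highest d6PGCLC pool and the lowest PGC pool met at 90.9 CPM. The log2 fold change was -0.25 (SE 0.10, 95% interval -0.46 to -0.04), the unadjusted p was 0.0199 and the adjusted p was 0.061. The gene lay at the threshold: it passed in 11 of 18 alternative analyses, always lower. The ratio of *Suv39h2* to *Suv39h1* counts was 0.442 ± 0.0696 in d6PGCLCs and 0.376 ± 0.00991 in PGCs (exact permutation test, p = 0.114, adjusted 0.229, n = 4 each).

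The HP1 genes of the table did not pass the test. *Cbx1* (HP1β, chromosome 11, 96788680 to 96808982) had 71.7, 72.5, 74.4 and 72.0 CPM in d6PGCLCs and 76.1, 76.0, 71.0 and 75.6 CPM in PGCs. The groups overlapped, and the log2 fold change was -0.04 (SE 0.09, 95% interval -0.24 to 0.16, adjusted p = 0.980).

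*Cbx5* (HP1α, chromosome 15, 103191546 to 103239904) had 768.1, 607.4, 625.3 and 679.6 CPM in d6PGCLCs and 649.4, 489.6, 642.4 and 627.9 CPM in PGCs. The ranges overlapped, with the lowest value in E12.5 PGC replicate 2 and the highest in d6PGCLC replicate 1. The log2 fold change was 0.15 (SE 0.10, 95% interval -0.05 to 0.36, adjusted p = 0.305). It was 0.07 without E12.5 PGC replicate 2 and 0.08 without d6PGCLC replicate 1, and with an offset for exonic length it was 0.32 and passed the test (adjusted p = 0.0011). The ratio of *Cbx5* to *Cbx1* counts was 9.23 ± 1.10 in d6PGCLCs and 8.08 ± 1.14 in PGCs (exact permutation test, p = 0.229, adjusted 0.305, n = 4 each).

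*Cbx3* (HP1γ) was not analysed here, as the table gives it no row. The authors removed at random genes whose promoters overlap, and the start of *Cbx3* lies 722 bases from that of *Hnrnpa2b1* on the other strand, which is in the table. This is the nearest pair of starts among the RefSeq promoter windows, and other annotated starts of these genes give other distances. Such a distance did not always cost a gene its row: the starts of *Cbx5* and *Hnrnpa1* lie 545 bases apart by the same measure, and both are in the table. Why *Cbx3* has no row is not given in the sources used here. *Hnrnpa2b1* itself was lower in d6PGCLCs (log2 fold change -0.33, adjusted p = 0.00161) and says nothing of *Cbx3*.

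**Figure D2:**
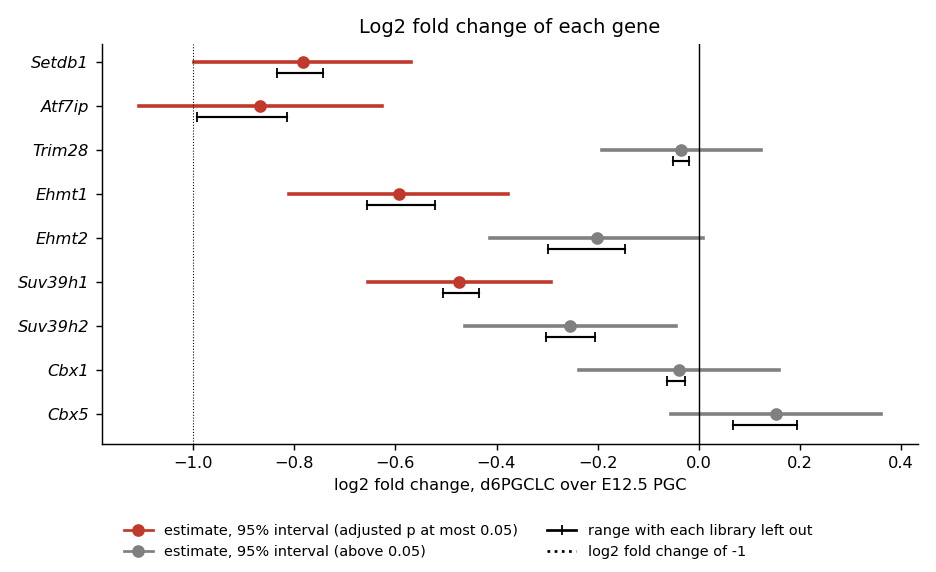
Log2 fold change of each gene, d6PGCLC over E12.5 PGC, with its 95% interval in red (adjusted p at most 0.05) or grey, and in black the range of the estimate when each library was left out in turn. The 4 red intervals lie below 0 and their points to the right of the dotted line at -1, and the black ranges of all 9 genes keep to 1 side of 0.

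The 4 genes that fell kept their call and direction in all 18 alternative analyses, which are those that left out 1 library and those that changed the test, the scaling, the filter or a covariate. With each library left out in turn, the log2 fold change ran from -0.83 to -0.74 for *Setdb1*, from -0.99 to -0.82 for *Atf7ip*, from -0.66 to -0.52 for *Ehmt1* and from -0.51 to -0.43 for *Suv39h1*. The CPM ranges of the groups did not overlap for 5 of the 9 genes, *Suv39h2* being the fifth, in each case with the d6PGCLC pools lower. The same held for 24.1% of the expressed genes and 14.8% of all genes.

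Levels can be compared between genes only per length, here as RPKM, which divides CPM by the kilobases of exon counted. *Trim28* led with 661 ± 16.1 RPKM in d6PGCLCs and 677 ± 23.6 RPKM in PGCs (SD, n = 4 each), while the highest library of any other gene had 85.5 RPKM. In PGCs there followed *Suv39h1* (79.1 ± 4.83), *Ehmt2* (72.2 ± 5.91), *Cbx5* (65.9 ± 8.28) and *Cbx1* (56.4 ± 1.86), whose neighbours in that order overlapped between libraries. *Atf7ip* (39.3 ± 4.23) and *Setdb1* (36.1 ± 3.19) formed a middle pair that overlapped, and *Suv39h2* (22.0 ± 1.71) and *Ehmt1* (20.7 ± 2.41) were the lowest and overlapped as well.

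In d6PGCLCs the second place was held by *Cbx5* (73.3 ± 7.90 RPKM), followed by *Ehmt2* (62.8 ± 9.38), *Suv39h1* (57.0 ± 3.75) and *Cbx1* (54.8 ± 0.919), each overlapping the next. *Suv39h1* and *Cbx5* thus changed places: every *Suv39h1* library was above every *Cbx5* library in PGCs (lowest 74.0, highest 71.0 RPKM) and below in d6PGCLCs (highest 60.8, lowest 66.4 RPKM). *Atf7ip* (21.6 ± 3.66), *Setdb1* (21.0 ± 1.86) and *Suv39h2* (18.4 ± 1.71) overlapped in d6PGCLCs, whereas in PGCs *Suv39h2* lay below every library of *Setdb1*. *Ehmt1* was the lowest with 13.7 ± 1.26 RPKM.

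The summed level of the 5 methyltransferases was 173 ± 10.9 RPKM in d6PGCLCs (166 to 189) and 230 ± 17.4 RPKM in PGCs (212 to 252). These ranges did not overlap, as a description of the same counts. *Setdb1* made up 12.1 ± 0.790% of the sum in d6PGCLCs and 15.7 ± 0.470% in PGCs, and *Ehmt2* made up 36.2 ± 3.37% and 31.4 ± 0.746%. *Suv39h1* held 33.1 ± 3.47% and 34.4 ± 0.650%, so that *Ehmt2* and *Suv39h1* together made up most of the summed level in both cell types.

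**Figure D3:**
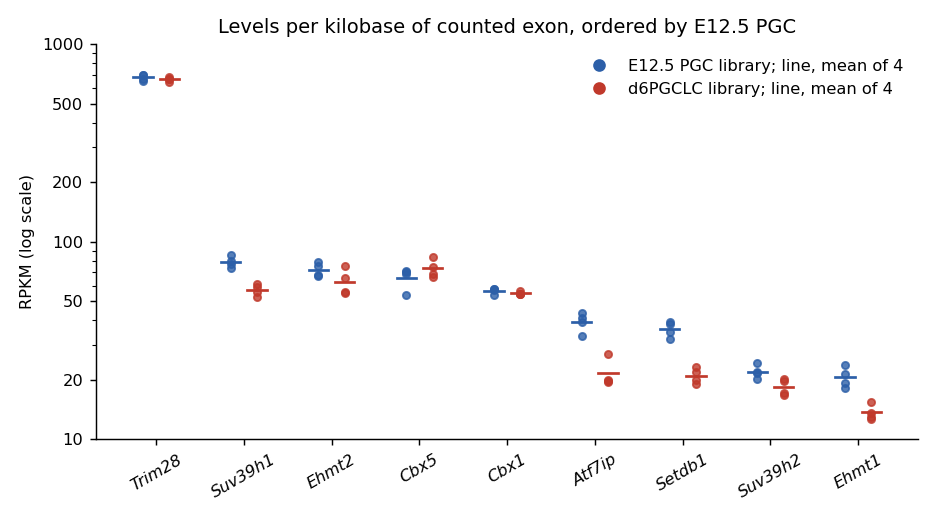
Levels of the 9 genes in RPKM on a log axis, ordered by the mean in E12.5 PGCs, with 1 point per library and a line at the mean of 4. *Trim28* lies near 661 to 677 RPKM in both groups, and the other genes lie between 13.7 and 79.1 RPKM in mean.

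**Figure D4:**
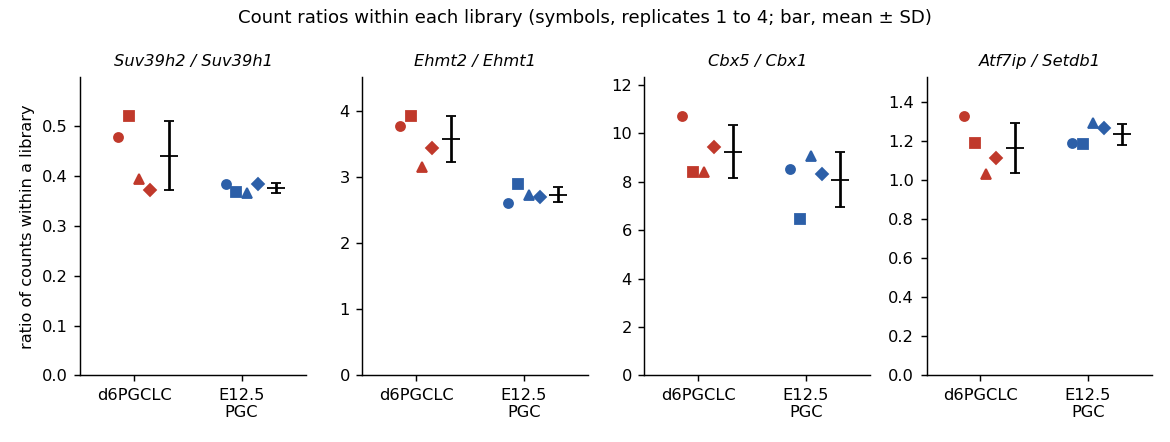
Ratios of read counts of 2 genes within each library (linear axes from 0), with mean ± SD of 4 libraries per group. The groups are apart for *Ehmt2* over *Ehmt1* (3.58 and 2.74 in mean) and overlap for the other 3 ratios.

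Genes that work with this machinery moved in both directions. Across 6 lists of cofactors, readers, partners and demethylases, 39 of 44 genes were in the table, of which 10 were higher, 13 lower and 16 not called in d6PGCLCs, that is 59% called against 53.6% of the expressed genes. The median log2 fold change of the 39 was -0.04.

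The counts of single lists below are to be set against the 25.6% of expressed genes called lower and 28.1% called higher (15.4% and 16.1% of all genes), and the lists hold only 2 to 10 genes each, with no test of a list. Among the SETDB1 and HUSH cofactors, 3 of 6 fell and none rose. HUSH is the complex that recruits SETDB1 to transposons and silences them. Its chromodomain subunit *Mphosph8* had 219 ± 19.3 CPM in d6PGCLCs and 320 ± 31.1 CPM in PGCs (log2 fold change -0.55, adjusted p = 7.4e-05). Its ATPase effector *Morc2a* had a log2 fold change of -0.28 (adjusted p = 0.016). *Setdb2*, a relative of *Setdb1* present at only 6.82 ± 1.17 and 11.99 ± 2.14 CPM, fell as well (-0.80, adjusted p = 0.00253). *Tasor*, the scaffold of HUSH, had a log2 fold change of -0.20 and was not called.

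Of the 6 G9a/GLP partners and H3K9 methylation readers, 2 rose and 1 fell. *Cdyl2*, which encodes a chromodomain reader of methylated H3K9, had 274, 253, 137 and 135 CPM in d6PGCLCs and 37.1, 38.3, 43.4 and 51.4 CPM in PGCs. Every d6PGCLC pool was above the PGC pools, with a spread among d6PGCLC pools, and the log2 fold change was 2.23 (SE 0.18, adjusted p = 5.7e-09). Its paralog *Cdyl* rose by 0.55 on the log2 scale (adjusted p = 5.3e-05). *Wiz*, the zinc finger protein that holds the G9a/GLP complex on chromatin, fell like *Ehmt1* (log2 fold change -0.62, adjusted p = 1.6e-05).

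Among the TRIM28 family and KRAB zinc finger genes, 3 of 8 rose and 3 fell. *Zfp57*, which directs TRIM28 to imprinted regions, was low in both groups, with 5.62, 4.38, 3.24 and 2.55 CPM in d6PGCLCs and 2.12, 1.89, 2.49 and 0.903 CPM in PGCs. Its groups were close to each other, and the log2 fold change was 1.09 (SE 0.33, adjusted p = 0.0139). *Zfp809*, which brings TRIM28 to proviruses, rose by 0.48 on the log2 scale. The TRIM28 relatives *Trim24* and *Trim33* fell (-0.37 and -0.41), while *Trim28* itself was not called.

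Of the 7 HP1 partners and H3.3 deposition genes, *Chaf1b*, a subunit of the chromatin assembly factor that binds HP1, rose (log2 fold change 0.73, adjusted p = 1e-04), and *Incenp* and *Pogz*, which encode HP1-binding proteins, fell (-0.52 and -0.34). The other 4 were not called, among them *Lbr* and *Chaf1a* at 0.00 and -0.02. Of the PRDM family, *Prdm2* fell (-0.43) and *Mecom* was under 1 CPM in both groups.

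Of the 10 H3K9 demethylases, which remove the mark, 4 rose, 3 fell and 3 were not called. *Kdm4b*, a demethylase of the trimethyl mark, had 51.9, 41.0, 44.8 and 54.2 CPM in d6PGCLCs and 23.0, 20.1, 23.8 and 23.3 CPM in PGCs. All d6PGCLC pools were above all PGC pools, with a log2 fold change of 1.09 (SE 0.13, adjusted p = 7.7e-07). Its paralogs *Kdm4c* and *Kdm4a* rose by 0.86 and 0.48, and *Kdm3b*, which acts on the lower methyl states, by 0.51.

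*Phf8*, an X-linked demethylase of the dimethyl mark, had 14.6, 8.35, 15.3 and 17.2 CPM in d6PGCLCs and 39.8, 20.0, 30.8 and 27.6 CPM in PGCs. The groups did not overlap, and the log2 fold change was -1.09 (SE 0.21, adjusted p = 0.000246). *Phf2* (-0.78) and *Jmjd1c* (-0.30) fell too. The abundant demethylases *Kdm1a* and *Kdm3a* had log2 fold changes of 0.05 and 0.16 and were not called.

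**Figure D5:**
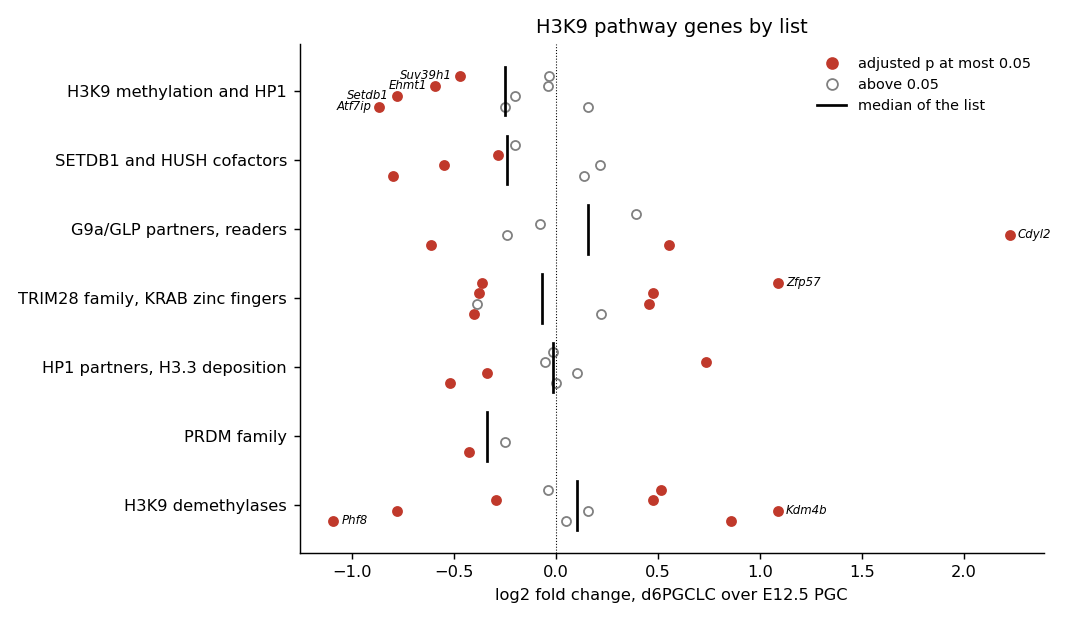
Log2 fold change, d6PGCLC over E12.5 PGC, of the 9 genes (top) and of 39 further genes in 6 lists, filled red where the adjusted p was at most 0.05, with a black line at each list's median. Named outside the top list are genes past an absolute log2 fold change of 1, which are *Cdyl2* at 2.23, *Zfp57* and *Kdm4b* at 1.09 and *Phf8* at -1.09.

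Counted reads came to 7991437 to 12024841 per library, at which 3 counts correspond to 0.249 to 0.383 CPM, and each of the 9 genes had at least 487 reads in every library. Germ cell markers summed to 4068 to 4699 CPM in d6PGCLCs and 3034 to 3365 CPM in PGCs. Of these 10, 5 were higher and 3 lower in d6PGCLCs, and *Prdm1* and *Dppa3*, the genes of the Blimp1-Venus and Stella-ECFP reporters, were among the higher (log2 fold change 1.21 and 0.85). *Itgb3*, which encodes the integrin β3 by which the PGCs were sorted, and *Fut4*, a gene whose enzyme can make the SSEA1 epitope, were among the lower (-0.72 and -3.48). The SSEA1 epitope itself was not measured here. Gonadal somatic markers summed to 0.664 to 13.1 CPM and 3.25 to 8.10 CPM, with 1 of 9 higher and 5 lower. The higher gene was the collagen gene *Col1a1*, at 11.8 CPM in d6PGCLC replicate 4 and 0.249 to 3.87 CPM in the other d6PGCLC pools. Without it the sums were 0.415 to 1.33 CPM in d6PGCLCs and 3.16 to 7.74 CPM in PGCs, so that the sum of these markers was lower in every d6PGCLC pool, and their part in the results was not tested. Endothelial and blood markers summed to 37.3 to 51.2 CPM in d6PGCLCs and 19.2 to 60.6 CPM in PGCs, with 3 of 9 higher and 2 lower. The lower genes were the embryonic globins *Hbb-y* and *Hba-x*, for which E12.5 PGC replicate 2 had 26.0 and 6.42 CPM, while no other PGC pool exceeded 3.37 and 0.812 CPM. Without the globins the sums were 37.3 to 50.7 CPM in d6PGCLCs and 15.7 to 28.2 CPM in PGCs, higher in every d6PGCLC pool, and their part in the results was not tested either. *Tcf21*, *Emcn* and *Sox1* were at 0 in all d6PGCLC pools, and *Csf1r* and *Ptprc* at 0 in all PGC pools. Of these, *Csf1r* alone was called, at 1.08 to 3.06 CPM in d6PGCLCs (edgeR, adjusted p = 5.3e-06). *Tcf21*, *Emcn*, *Sox1* and *Ptprc* had at most 0.631 CPM in any pool and were not called. Genes of epiblast-like cells and somatic differentiation summed to 19.8 to 32.3 CPM and 18.0 to 22.8 CPM, with 1 of 7 higher and 4 lower. In bulk samples, fewer cells of a type and less RNA per cell cannot be told apart.

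Of the DNA replication and proliferation genes, 5 of 9 were lower in d6PGCLCs and none higher, where 25.6% of expressed genes and 15.4% of all genes were lower. The median log2 fold change of these 9 was -0.24, and they summed to 6686 to 8007 CPM in d6PGCLCs and 7413 to 8537 CPM in PGCs. Their part in the result was not tested. E12.5 PGC replicate 4 alone had reads of Y-linked genes (99 counts), and E12.5 PGC replicate 2 stood apart with 144 and 181 CPM of the heat shock genes *Hspa1a* and *Hspa1b*, where the other PGC libraries had 4.42 to 20.3 and 6.41 to 23.2 CPM. Every PGC library was above every d6PGCLC library for both, the latter having 0.305 to 0.747 and 1.45 to 1.79 CPM, and their part in the results was not tested. Without replicate 4 the log2 fold changes of *Setdb1*, *Atf7ip*, *Ehmt1* and *Suv39h1* were -0.80, -0.87, -0.63 and -0.48, and without replicate 2 they were -0.83, -0.93, -0.65 and -0.50, with all 4 calls kept in each case.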

How the data were processed

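The authors deposited 1 table of raw read counts per gene for all 8 libraries, not normalized, with the exonic length of the isoform counted for each gene. They aligned reads of a stranded mRNA library with STAR to GRCm38, chose 1 isoform per gene at random, removed at random genes with overlapping promoters, and counted uniquely mapped reads on exons. The strand setting of the counting is not given in the sources used here. Entrez identifiers were matched to RefSeq (GRCm38.p6), which gave a symbol to 21907 of 21950. The members and lists were chosen with earlier results of these data known. Coordinates are those of RefSeq genes in GRCm38, promoter windows are from RefSeq and transcript lengths from GENCODE for the same assembly.

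Counts were fitted with edgeR 4.0.16 (R 4.3.3) by glmQLFit and glmQLFTest with TMM scaling, cell type as the only term and no filter on low counts, and p-values were adjusted by Benjamini-Hochberg over all 21950 genes. The fit was tested on simulated data. The quasi-likelihood test stood in for the likelihood ratio test of the study, which was an alternative. Standard errors come from this fit. Other alternatives were DESeq2 1.42.0, 3 further scalings, 2 filters on low counts, a prior count of 2, a replicate term, an exonic length offset, an adjusted p of 0.01 and each library left out in turn. Count ratios within a library were compared by an exact permutation test and adjusted over 4 ratios, as 2 more ratios planned with *Cbx3* could not be computed. All members were named, and from each of the 6 pathway lists the called genes whose log2 fold change reached 1 in size, while marker lists were given by counts, summed CPM and genes at 0. Further genes of the lists, markers used for sorting included, were named after their values were seen, for their role. Chi-square per degree of freedom between libraries of a group was 3.35 to 22.1, so that no library was a copy of another.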

Additional observations from a re-analysis of the deposited data

Results flagged for a closer look

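Of 26 sets of 4 values examined (CPM of each gene and each count ratio, by group), 3 held a value far from the others by Dixon's criterion, where chance gives about 1 in 20. *Atf7ip* was at 91.1 CPM in d6PGCLC replicate 1, above the other 3 pools at 65.7 to 67.0 CPM and below every PGC pool. *Cbx1* was at 71.0 CPM in E12.5 PGC replicate 3, below the other 3 pools at 75.6 to 76.1 CPM. *Cbx5* was at 489.6 CPM in E12.5 PGC replicate 2, below the other 3 pools at 627.9 to 649.4 CPM, and this is the pool that stood apart for *Hspa1a* and *Hspa1b*.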

How the results depend on the processing

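The 4 genes called lower stayed lower and called in all 18 alternatives, and no log2 fold change of the 9 genes changed sign. The count of lower genes, 4 as reported, was 4 to 6 with each library left out in turn and 4 at an adjusted p of at most 0.01. It was 5 with DESeq2, each further scaling, each filter on low counts and the exonic length offset. The likelihood ratio test and the prior count of 2 gave 4. With an exonic length offset 1 gene (*Cbx5*) was called higher, where the value as reported is 0, and with each library left out it stayed 0. The pathway lists gave 8 to 11 higher and 13 to 15 lower over the alternatives without left-out libraries. With each library left out, the log2 differences ran from 0.34 to 0.44 for *Ehmt2*/*Ehmt1*, 0.13 to 0.30 for *Suv39h2*/*Suv39h1*, 0.09 to 0.25 for *Cbx5*/*Cbx1* and -0.15 to -0.03 for *Atf7ip*/*Setdb1*. With the replicate block 6 genes were lower, *Ehmt2* and *Suv39h2* among them, 0 higher, and 7270 genes in all were called against 6919. The labels number the pools 1 to 4 in both groups without saying that a number is shared. Over expressed genes, the deviations of same-numbered pools correlated at 0.25, 0.10, -0.01 and 0.03. The d6PGCLC replicates 1, 2 and 4 correlated best with the PGC pool of their own number, and d6PGCLC replicate 3 did not. Of the PGC pools, replicates 1 and 2 did so, and replicates 3 and 4 did not. Whether the numbers pair the pools was thus not decided, and the fit as reported has no replicate term. No scaling moved the median of expressed genes by over 0.08 on the log2 scale. Intervals cover the spread between these pools only, and transcript isoforms, protein and the H3K9 mark itself were not measured in this table.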
